A study of Mus musculus with 15 samples.

Results

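The genes described here are the feedback inhibitors and transcription factors known as targets of FGF signalling through RAS and ERK: Spry1, Spry2, Spry4, Spred1, Spred2, Spred3, Etv1, Etv4, Etv5 and Il17rd. They were taken by name, with earlier results of these data known. Each gene was represented by the probe set, of those annotated to that gene alone, with the highest mean over the 15 samples. Of the 10 genes, 9 had such a probe set (28 probe sets in all), out of 18194 genes and 34958 probe sets so annotated. The 3 probe sets of Etv1 also carry the symbol of a predicted gene, Gm5454, so Etv1 was not analysed here. Of the 9 measured genes 8 lay above the filter on dim probe sets and were tested among 13174 genes. Spred3 lay just below it, with a mean of 5.01 on the log2 scale against a filter of 5.06.

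Transcripts were measured on 1 array per animal in interscapular brown adipose tissue, the heat-producing fat depot between the shoulder blades. All 15 animals were adult male wild-type C57BL/6N mice on a high-fat diet, and all tissue was taken on day 5. The 5 control mice (31 to 35) have no injected substance named in the labels, the 5 FGF21 mice (36 to 40) received human FGF21 at 1 mg/kg per injection and 2 mg/kg per day, and the 5 aFGFR1/KLB mice (41 to 45) received 10 mg/kg of bFKB1, an agonistic antibody to the FGFR1/KLB receptor complex, once into the peritoneum. The agents therefore differed in dose, schedule and time since the last injection, and their effects cannot be told apart from those differences. RNA came from tissue and not from sorted cells, so fewer cells of a type and less RNA per cell cannot be told apart.

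FGF21 is a hormone that binds FGFR1 together with its co-receptor KLB, and the active receptor drives RAS, RAF, MEK and ERK. Sprouty proteins (Spry) act downstream of growth factor receptors to dampen that cascade, and Spred proteins bring the RAS GTPase activating protein neurofibromin to the membrane to switch RAS off. Il17rd, also known as Sef, is a membrane protein that inhibits FGF signalling. Etv1, Etv4 and Etv5 are ETS transcription factors of the PEA3 group, induced by FGF in many tissues, and Capicua (Cic) is a repressor of Etv genes that ERK activity relieves. The inhibitors are thus both targets and brakes of the pathway, and transcripts of such genes are widely used as a readout of FGF receptor activity.

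Start-site sequences show what the members' regulatory DNA looks like and whether letters known from ERK-regulated promoters lie in it. RefSeq (GRCm38.p6) gave 10 windows of 300 bases, from 250 before to 50 after the annotated start, for 8 of the 10 genes. Spry4, which rose most with FGF21, and Etv4 were without a window here. The windows of Spred2, Spred1 and Etv5, members that rose with FGF21, and of Spry2, which holds 2 of the 3 motif matches, are printed 5′ to 3′ in the direction of the gene, with motif matches in capitals.
Spred2, chr11:19924192-19924491, plus strand: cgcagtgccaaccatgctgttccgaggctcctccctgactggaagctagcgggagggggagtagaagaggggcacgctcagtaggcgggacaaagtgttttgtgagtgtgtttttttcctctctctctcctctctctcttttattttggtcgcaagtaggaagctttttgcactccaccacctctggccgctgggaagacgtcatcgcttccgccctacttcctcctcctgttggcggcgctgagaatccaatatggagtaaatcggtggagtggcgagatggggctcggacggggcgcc
Spred1, chr2:117120821-117121120, plus strand: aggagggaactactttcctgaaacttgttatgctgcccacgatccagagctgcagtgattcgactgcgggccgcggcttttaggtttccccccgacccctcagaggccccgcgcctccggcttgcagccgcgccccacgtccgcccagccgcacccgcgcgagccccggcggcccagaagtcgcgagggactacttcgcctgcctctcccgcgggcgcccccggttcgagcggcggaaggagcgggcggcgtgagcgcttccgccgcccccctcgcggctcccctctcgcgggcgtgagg
Etv5, chr16:22439521-22439820, minus strand: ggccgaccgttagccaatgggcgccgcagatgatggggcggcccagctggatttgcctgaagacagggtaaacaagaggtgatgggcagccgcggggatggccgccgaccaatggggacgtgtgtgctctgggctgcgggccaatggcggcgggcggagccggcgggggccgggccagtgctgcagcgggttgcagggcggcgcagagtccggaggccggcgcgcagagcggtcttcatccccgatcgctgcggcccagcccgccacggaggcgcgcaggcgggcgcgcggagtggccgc
Spry2, chr14:105896770-105897069, minus strand: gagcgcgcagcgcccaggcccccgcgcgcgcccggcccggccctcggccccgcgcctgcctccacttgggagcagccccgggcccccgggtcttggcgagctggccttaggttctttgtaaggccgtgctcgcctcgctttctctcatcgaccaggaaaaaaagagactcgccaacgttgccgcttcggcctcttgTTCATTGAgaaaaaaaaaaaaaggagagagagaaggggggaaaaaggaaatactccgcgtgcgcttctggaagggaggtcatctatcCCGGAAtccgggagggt

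The members' windows differed in base composition. The Spred1 window was 72.3% GC with 40 CG pairs, the printed Etv5 window 74% with 37 and the Spred2 window 57% with 17, beside medians of 52.7% and 7 over all 32851 windows. The other Etv5 window, not printed, was 60% with 19. Both Etv1 windows lay below the median GC, at 48.7% and 44%. Their CG pairs numbered 12, above the median, and 3, below it. The Spred3 window was near both medians, at 55% with 8. The short ETS core CCGGAA, searched on both strands, lay in 14.9% of all windows and in 1 of the 10, that of Spry2, 34 bases after the start. The Capicua octamers TGAATGAA, TGAATGGA, TCAATGAA and TCAATGGA lay in 3.84% of all windows and in 2 of the 10. In the Spry2 window the octamer is TTCATTGA, a match on the opposite strand with its first base at −54 from the start, and in the Spred3 window it is TGAATGAA, at −10. The longer ETS site ACCGGAAGT (1.1% of all windows), which contains the whole core so that each match is also a core match, the AP-1 site TGANTCA (7.81%) and the CRE TGACGTCA (1.79%) lay in 0 of the 10. These are matches of letters in short windows and show no binding.

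Array medians lay between 50.6 and 52.1 intensity units, and a typical log2 difference between groups carried a standard error of 0.10 (median over genes). Arrays give no read depth, and their number limits the precision. Brown adipocyte markers were bright throughout, with 8 of the 8 measured above the filter and summed intensities of 131723 to 141944 in controls, 131491 to 146645 with FGF21 and 142875 to 151648 with the antibody. Of these 8, the lipid elongase Elovl3 rose with FGF21 (1.60 ± 0.23, adjusted p = 0.00111), and Elovl3 (2.10 ± 0.23, 0.000331), Ppargc1a (0.60 ± 0.17, 0.0486) and Ucp1 (0.19 ± 0.05, 0.0494) passed with the antibody, the last 2 just under the threshold; these marker calls were not refitted with samples left out. Of 6 mast cell markers, 5 of them above the filter, only Kit was called. It fell with both agents (−1.27 ± 0.15 and −1.14 ± 0.15, adjusted p = 0.00036 and 0.00117). The summed intensities of the mast cell list overlapped, at 348 to 410 in controls, 283 to 536 with FGF21 and 261 to 412 with the antibody. Control 34 and FGF21 36 stood apart from their groups in macrophage markers. The summed intensity of 10 such genes was 43168 in control 34 (range of controls 6391 to 43168). It was 48724 in FGF21 36 (range of the group 7646 to 48724), against 10398 to 18463 with the antibody. Of the 9 markers tested, 0 passed in either comparison with control. Of all genes 6.32% were called with FGF21 and 5.18% with the antibody, so 0 of 9 lies near those shares. Skeletal muscle markers ranged widely in every group, from 11785 to 34337, 2276 to 101606 and 2261 to 113997 in the same order. Fibroblast markers were highest in the same mice, at 75246 in control 34 and 65612 in FGF21 36, but reached no more than 26498 with the antibody.

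Members of the set rose with both agents. With FGF21, Spry4, Spred2, Etv5 and Spred1 rose by 1.69-fold to 2.79-fold. With the antibody, Spry4 and Spred2 rose by 1.84-fold and 1.74-fold and Spry1 by 1.25-fold. No member fell in either comparison, where 3.68% of all 13174 genes fell with FGF21 and 2.49% with the antibody. The rises with FGF21 were 4 of the 8 tested members, where 2.64% of all genes rose (6.32% were called in either direction). Those with the antibody were 3 of 8, where 2.69% of all genes rose (5.18% in either direction). The members were chosen with earlier results of these data known, so these shares describe the set and are no independent test of it. Calls rest on limma's moderated test, two-sided, with Benjamini-Hochberg adjustment over all genes tested and a threshold of 0.05, and every fold change below is a difference of mean log2 intensities. The median log2 fold change of the 8 was 0.50 with FGF21 and 0.28 with the antibody, beside −0.02 over all genes in both. Both comparisons use the same 5 controls.

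**Figure D1:**
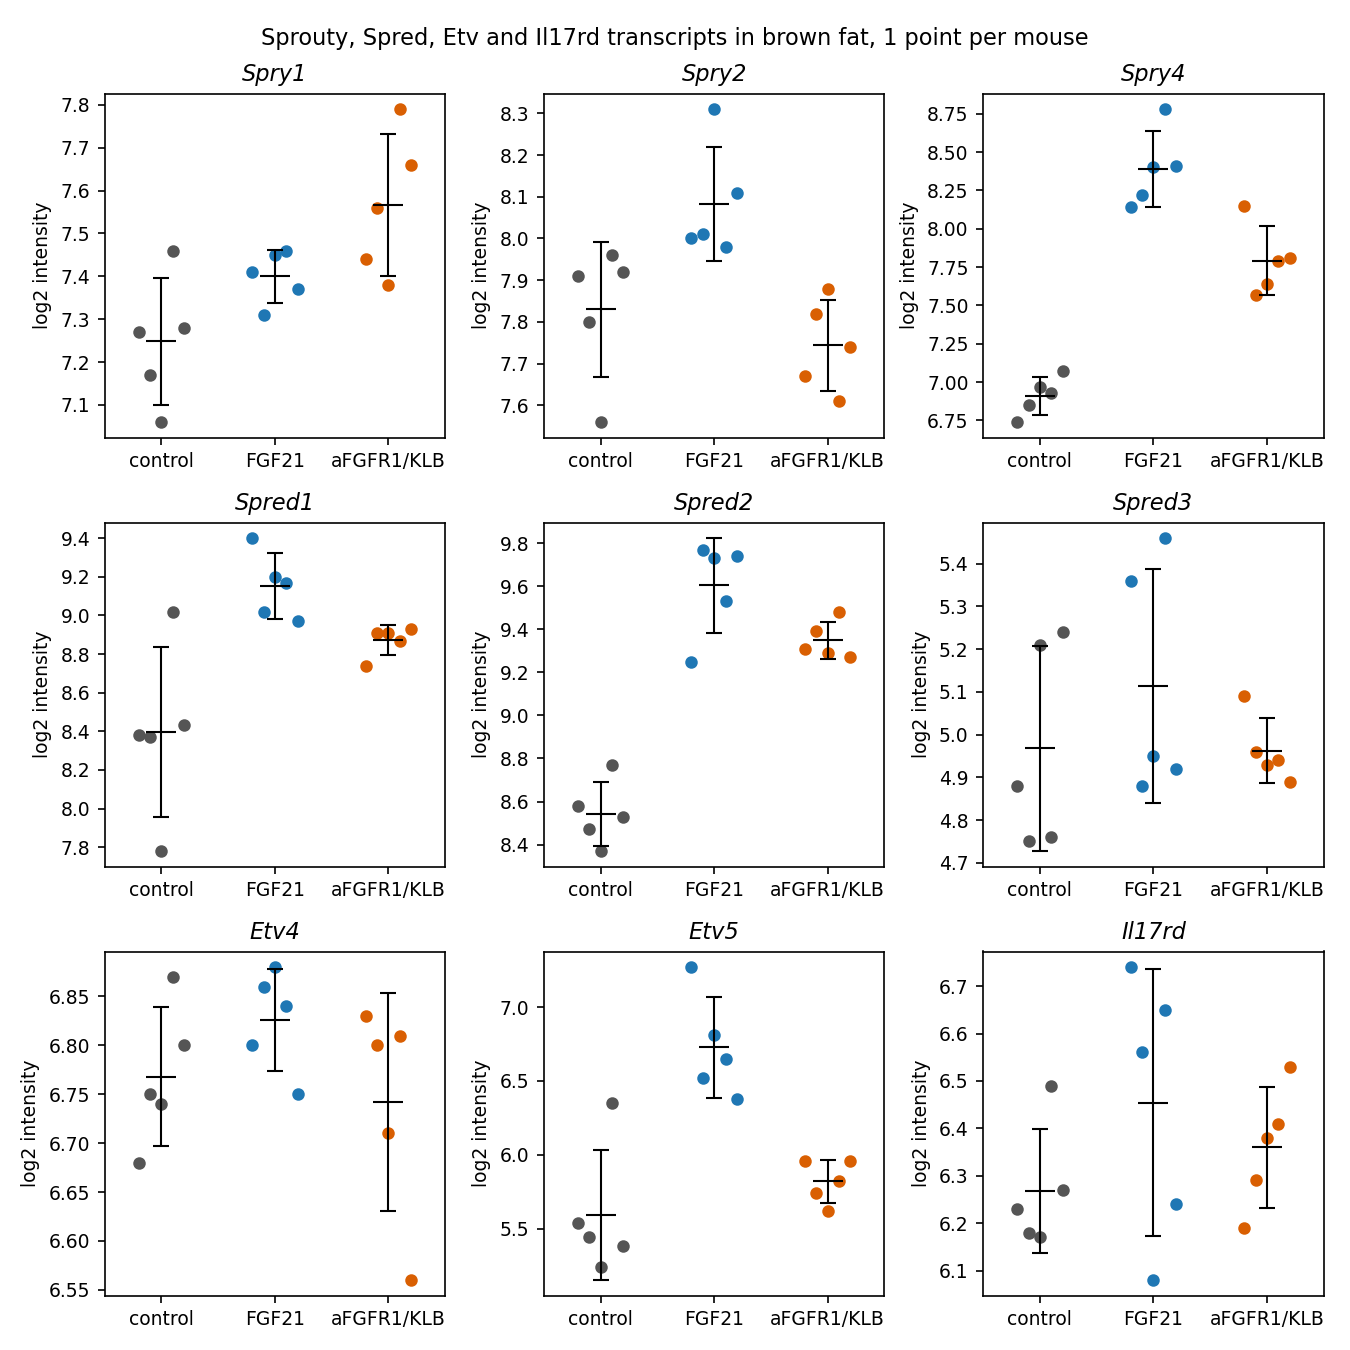
Log2 intensity (vertical axis) of each of the 9 measured genes, 1 point per mouse and 1 column per group (control, FGF21, aFGFR1/KLB), with bars for the group mean and SD (n = 5). Spry4 and Spred2 lie above every control in both treated groups, Etv5 lies above every control with FGF21 (6.38 to 7.27), and Etv4 and Spred3 overlap between all groups.

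Spry4, an inhibitor of receptor tyrosine kinase signalling to ERK, moved most among the Sprouty genes. Its log2 intensity was 6.74, 6.85, 6.97, 6.93 and 7.07 in the controls, 8.14, 8.22, 8.40, 8.78 and 8.41 with FGF21, and 8.15, 7.57, 7.64, 7.79 and 7.81 with the antibody. Every treated mouse was above every control, and the antibody group lay below the FGF21 group except for mouse 41, which at 8.15 just passed FGF21 36 at 8.14. The rise with FGF21 was 1.48 ± 0.12 (SE; 95% interval 1.21 to 1.74; adjusted p = 1.1e-05), the rank 7 among all genes by p. With the antibody it was 0.88 ± 0.12 (0.62 to 1.14; adjusted p = 0.0014), rank 38. When all probe sets of each gene were averaged, which for Spry4 takes in 2 dim ones, the rises were 0.55 (adjusted p = 0.00175) and 0.27 (adjusted p = 0.0835), so the call with the antibody ended.

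Spry1, a close relative of Spry4, was called only with the antibody; its difference between the agents did not pass (0.17, adjusted p = 0.402). Spry1 measured 7.27, 7.17, 7.06, 7.46 and 7.28 in controls, 7.41, 7.31, 7.45, 7.46 and 7.37 with FGF21, and 7.44, 7.56, 7.38, 7.79 and 7.66 with the antibody. The antibody mice were highest on average, with overlap through control 34 at 7.46. Its rise with the antibody was 0.32 ± 0.08 (0.14 to 0.50; adjusted p = 0.0441). That call ended in 12 of the 15 fits without 1 sample (0.26 to 0.35, adjusted p 0.0503 to 0.109), and held only without control 34, FGF21 36 or aFGFR1/KLB 43 (adjusted p = 0.013, 0.0417 and 0.038). It also ended with no filter (adjusted p = 0.057), the 20th percentile filter (0.0521), the 10 samples alone (0.0868) and arrays centred on ribosomal protein genes (0.42, adjusted p = 0.0666). With FGF21 the Spry1 difference was 0.15 ± 0.08 (−0.03 to 0.33; adjusted p = 0.345).

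Spry2, also a Sprouty inhibitor of the cascade, was not called with either agent. It measured 7.91, 7.80, 7.56, 7.96 and 7.92 in controls, 8.00, 8.01, 8.31, 7.98 and 8.11 with FGF21, and 7.67, 7.82, 7.88, 7.61 and 7.74 with the antibody. Every FGF21 mouse was above every control and every antibody mouse. The difference of 0.25 ± 0.09 from control (0.06 to 0.44) did not pass (adjusted p = 0.113), though it did without control 34 (0.28, adjusted p = 0.0487). With the antibody it was −0.09 ± 0.09 (−0.28 to 0.10; adjusted p = 0.645), or 0.01 when arrays were centred on ribosomal protein genes.

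Spred2, which recruits neurofibromin to RAS, rose with both agents. It measured 8.58, 8.47, 8.37, 8.77 and 8.53 in controls, 9.25, 9.77, 9.73, 9.53 and 9.74 with FGF21, and 9.31, 9.39, 9.29, 9.48 and 9.27 with the antibody. All 10 treated mice were above all 5 controls. The rise was 1.06 ± 0.10 with FGF21 (0.85 to 1.27; adjusted p = 3.8e-05; rank 11) and 0.80 ± 0.10 with the antibody (0.59 to 1.01; adjusted p = 0.00079; rank 18). Averaging its probe sets lowered these to 0.49 and 0.37, both still called (adjusted p = 0.00229 and 0.0136).

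Spred1, of the same function, rose with FGF21 against a wide spread in controls. It measured 8.38, 8.37, 7.78, 9.02 and 8.43 in controls, 9.40, 9.02, 9.20, 9.17 and 8.97 with FGF21, and 8.74, 8.91, 8.91, 8.87 and 8.93 with the antibody. Control 34, at 9.02, was the only control within the treated range. The rise with FGF21 was 0.76 ± 0.16 (0.41 to 1.10; adjusted p = 0.0134), and the call ended when limma was fitted to the 10 samples of that comparison alone (adjusted p = 0.0713). With the antibody the difference was 0.47 ± 0.16 (0.13 to 0.82) and did not pass (adjusted p = 0.113). Without control 34 it was 0.63 and passed (adjusted p = 0.00772).

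Spred3, the dimmest member, ranged from 4.75 to 5.24 in controls, 4.88 to 5.46 with FGF21 and 4.89 to 5.09 with the antibody, and all groups overlapped. Fitted with no filter it differed by 0.14 ± 0.13 with FGF21 (adjusted p = 0.659) and by −0.01 ± 0.13 with the antibody (adjusted p = 0.992).

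Il17rd did not pass either. It measured 6.23, 6.18, 6.17, 6.49 and 6.27 in controls, 6.74, 6.56, 6.08, 6.65 and 6.24 with FGF21, and 6.19, 6.29, 6.38, 6.41 and 6.53 with the antibody. The FGF21 mice spread above and below the controls. The differences were 0.19 ± 0.12 (−0.06 to 0.44; adjusted p = 0.41) and 0.09 ± 0.12 (−0.16 to 0.34; adjusted p = 0.74).

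Among the ETS factors, Etv5 rose with FGF21 and Etv4 stayed within its spread. Etv5 measured 5.54, 5.44, 5.24, 6.35 and 5.38 in controls, 7.27, 6.52, 6.81, 6.65 and 6.38 with FGF21, and 5.96, 5.74, 5.62, 5.82 and 5.96 with the antibody. Control 34, at 6.35, was the only control above 5.54, and it lay above every antibody mouse and just under the lowest FGF21 mouse. The rise with FGF21 was 1.14 ± 0.19 (0.72 to 1.55), or 2.2-fold (adjusted p = 0.00367). With the antibody the difference was 0.23 ± 0.19 (−0.18 to 0.65; adjusted p = 0.575). It reached 0.42 (adjusted p = 0.0128) with both control 34 and FGF21 36 left out.

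Etv4 held the narrowest range of the tested members. It measured 6.68, 6.75, 6.74, 6.87 and 6.80 in controls, 6.80, 6.86, 6.88, 6.84 and 6.75 with FGF21, and 6.83, 6.80, 6.71, 6.81 and 6.56 with the antibody. All groups overlapped. Its differences from control were 0.06 ± 0.06 (−0.07 to 0.19; adjusted p = 0.66) and −0.02 ± 0.06 (−0.15 to 0.11; adjusted p = 0.881), the latter 0.07 when centred on ribosomal protein genes. The upper limits of these intervals are 0.19 and 0.11, below the lower limits of the rises of Spry4 and Spred2 with either agent.

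**Figure D2:**
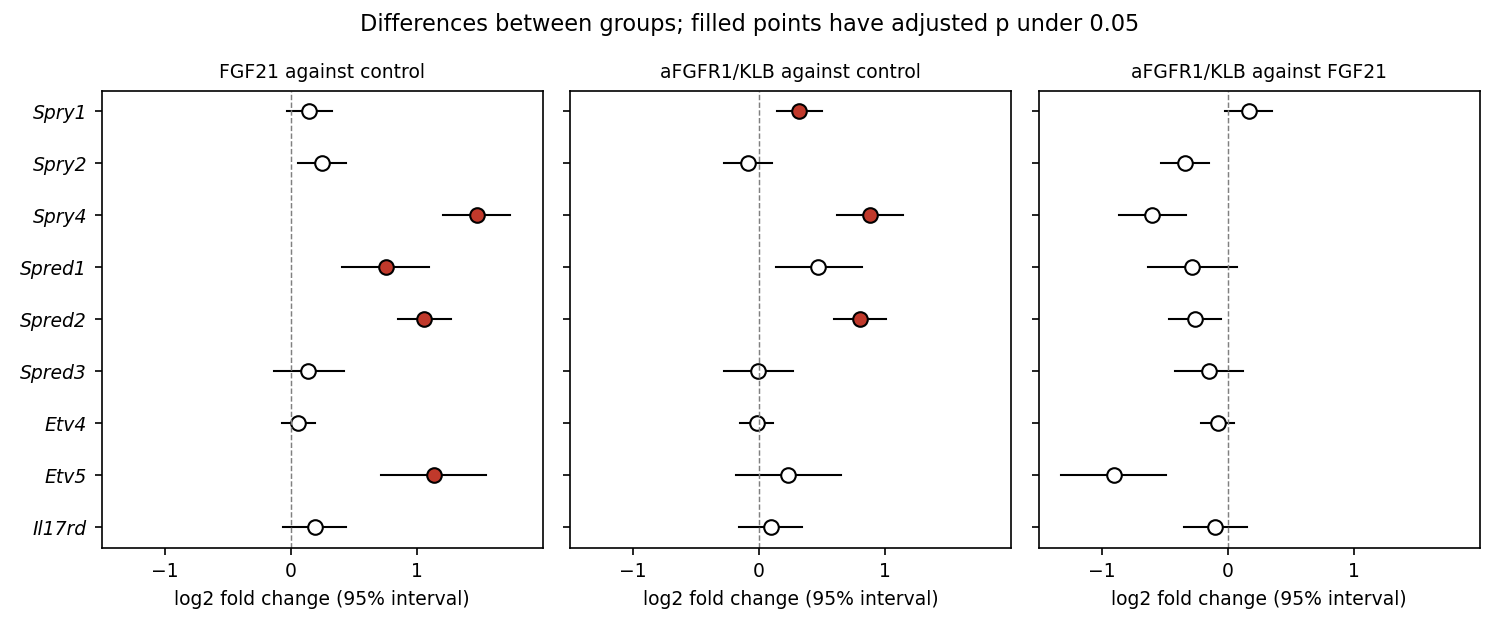
Log2 fold change (horizontal axis) of each member in the 3 comparisons, 1 panel each, with bars for the 95% interval of the limma fit. Spry4 lies farthest right in both comparisons with control (1.48 and 0.88), and the comparison of the antibody with FGF21 lies left of 0 for all tested members but Spry1 (0.17); Etv4 (−0.08) turns to 0.01 when centred on ribosomal protein genes.

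Set directly against each other, the antibody group was lower than the FGF21 group for 7 of the 8 tested members, but 0 of the 8 passed, where 0.372% of all genes did. At an unadjusted p under 0.05 there were 4 of the 8, where 13.5% of all genes lay under it. Spry4 differed by −0.60 ± 0.12 (−0.86 to −0.33; adjusted p = 0.0522), Etv5 by −0.90 ± 0.19 (−1.32 to −0.49; adjusted p = 0.0558), Spry2 by −0.34 ± 0.09 (−0.53 to −0.15; adjusted p = 0.11) and Spred2 by −0.26 ± 0.10 (−0.47 to −0.05; adjusted p = 0.283). The first 2 lie close to the threshold. Without control 34 both passed (adjusted p = 0.0297 for Spry4 and 0.00589 for Etv5), and Spry4 also passed without FGF21 36 (0.0423) or without aFGFR1/KLB 41 (0.0367). The adjusted p ranged from 0.00249 to 0.354 for Spry4 over all 27 alternatives. For Etv5 it ranged from 0.00164 to 0.154 over 26. With all probe sets averaged, Etv5 lay below the filter and was not tested. The remaining differences were −0.28 ± 0.16 for Spred1 (−0.63 to 0.07), −0.10 ± 0.12 for Il17rd (−0.35 to 0.15), −0.08 ± 0.06 for Etv4 (−0.21 to 0.05) and 0.17 ± 0.08 for Spry1 (−0.02 to 0.35). Etv4 was at 0.01 when centred on ribosomal protein genes. Etv5, Spry2 and Spred1 had groups that did not overlap, 3 of the 8, where 4.69% of all genes had none. Against control, groups did not overlap for 4 members with FGF21 and 2 with the antibody, all of them higher in the treated mice. Of all genes 5.25% and 8.61% had groups that did not overlap, and 2.37% and 4.44% were higher in every treated mouse.

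Leaving out 1 sample moved the counts of called members from 4 to between 4 and 5 with FGF21, from 3 to between 2 and 4 with the antibody, and from 0 to between 0 and 2 for the antibody against FGF21. The highest count in each was the one without control 34. In that fit calls over all genes also rose, from 6.32% to 15.9% with FGF21, from 5.18% to 8.65% with the antibody and from 0.372% to 1.91% for the antibody against FGF21.

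The other probe sets of each gene show how far a result depends on the probe set chosen. Why probe sets of 1 gene differ was not tested. Over all 45101 probe sets, with adjustment over all of them, 2.39% were called with FGF21 and 1.98% with the antibody. Spry4 has 4 probe sets, 2 of them above the filter. The second of these measured 5.74, 6.27, 6.23, 6.04 and 6.28 in controls, 6.77, 6.76, 6.79, 7.01 and 7.10 with FGF21, and 6.61, 6.53, 6.42, 6.48 and 6.33 with the antibody. It too was higher in every treated mouse than in any control, by 0.77 ± 0.11 with FGF21 (adjusted p = 0.0012) and 0.36 ± 0.11 with the antibody (adjusted p = 0.0993).

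Of 5 Spred2 probe sets, all above the filter, 2 were called with each agent. The second called one was the dimmest of the 5, with a mean of 6.00 over all samples. It measured 5.70, 5.09, 5.79, 5.37 and 5.56 in controls, 5.76, 6.28, 6.40, 6.07 and 6.36 with FGF21, and 6.15, 6.41, 6.08, 6.39 and 6.62 with the antibody. On it the rise was 0.68 ± 0.15 with FGF21 (adjusted p = 0.0224) and 0.83 ± 0.15 with the antibody (adjusted p = 0.00907), the opposite order to the brightest probe set; the difference between the orders was not tested. The other 3 gave 0.49 (adjusted p = 0.0653), 0.18 and 0.02 with FGF21, and between −0.07 and 0.18 with the antibody. Spred1 has 8 probe sets, 6 above the filter, of which 5 were called with FGF21 (0.43 to 0.79) and 0 with the antibody (0.27 to 0.51). Etv5 has 1 probe set above the filter and 2 dim ones at 0.04 and −0.00 with FGF21, so its rise rests on 1 probe set. Spry1 has only 1 probe set, and its rise with the antibody did not pass when adjusted over all probe sets (adjusted p = 0.0722).

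**Figure D3:**
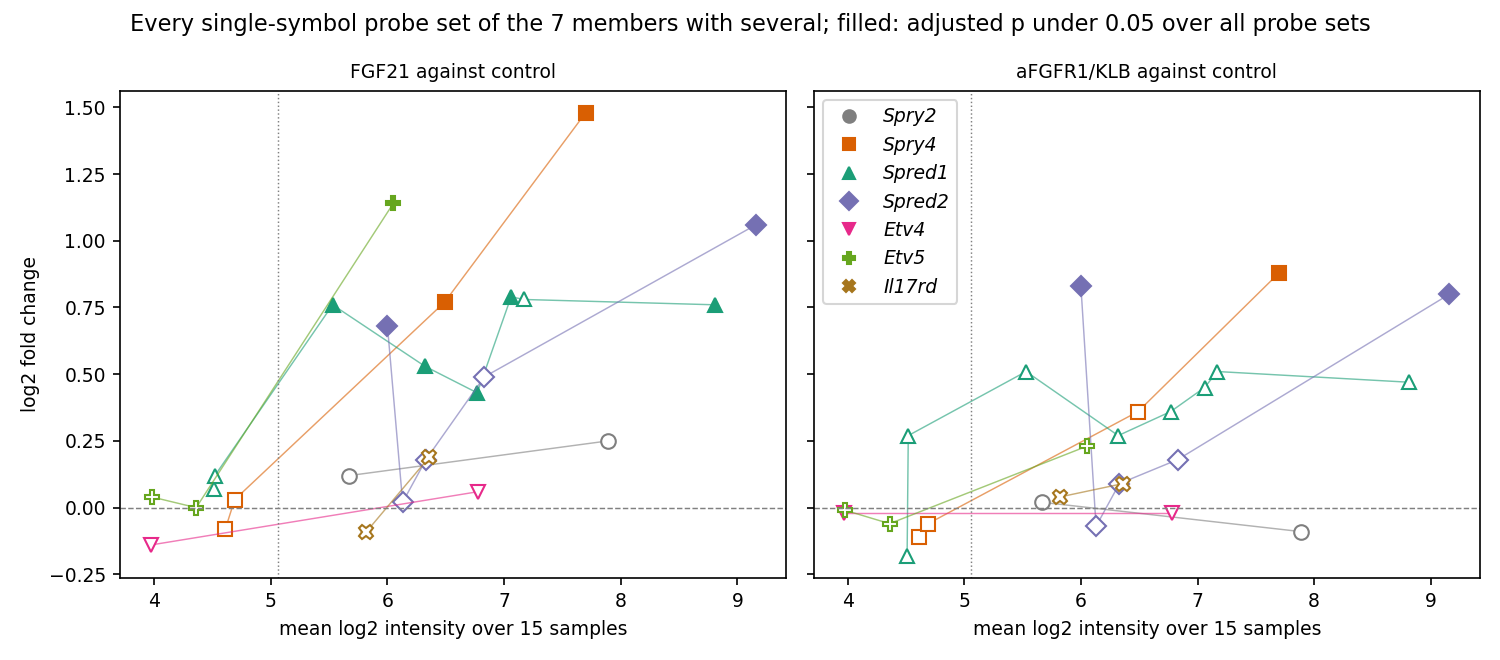
Log2 fold change against control (vertical axis) of every probe set of the 7 members with several, against its mean log2 intensity (horizontal axis), for FGF21 and the antibody, with the filter of 5.06 as a line. Filled symbols passed with adjustment over all probe sets. Dim probe sets of Spry4, Etv5 and Spred1 lie between −0.18 and 0.27, while the brightest of Spry4 lies at 1.48 with FGF21 and 0.88 with the antibody.

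Members also varied together between mice. Over the 15 samples Pearson's r was 0.90 for Spry4 with Spred2, 0.86 for Spred1 with Etv5 and 0.73 for Spry4 with Etv5. After group means were removed, r was 0.03 for Spry4 with Spred2 and −0.06 for Spry4 with Etv5, but stayed at 0.82 for Spred1 with Etv5. Spry1 with Spred1 (0.62 over the 15 samples, 0.65 within groups) and Spry2 with Spred1 (0.59 and 0.57) also kept theirs. Without control 34 and FGF21 36, the within-group r was 0.47 for Spred1 with Etv5, 0.51 for Spry1 with Spred1 and 0.70 for Spry2 with Spred1, over 13 samples. These are descriptions over 15 arrays that share RNA and normalisation within each mouse, and carry no p.

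Macrophage markers varied with several members between mice. In controls the mean log2 level of the 9 markers above the filter was 9.97, 9.06, 9.12, 11.72 and 10.11. With FGF21 it was 11.96, 9.27, 10.39, 10.85 and 10.51, and with the antibody 9.72, 9.73, 10.47, 9.90 and 10.19. The FGF21 group was highest on average, and the groups overlapped. Within groups the mean log2 level of the 9 macrophage markers above the filter correlated at 0.79 with Spred1 and 0.78 with Etv5, and at 0.53 with Il17rd, 0.50 with Spry1 and 0.34 with Spry2. It was −0.03 with Spry4, −0.13 with Spred2 and 0.06 with Etv4. Much of the relation rested on control 34 and FGF21 36, since over the other 13 samples the within-group r was 0.12 for Etv5, 0.47 for Spred1 and 0.10 for Il17rd. In those 13 samples it was 0.46 for Spry2, 0.33 for Spry1, 0.29 for Spry4, −0.18 for Spred2 and −0.30 for Etv4, so Spred1 and Etv5 no longer stood apart from the other members. Control 34, highest of the controls in these markers, was also highest of the controls in Etv5 and Spred1, and FGF21 36 was highest of its group in both. With the macrophage mean as a covariate in the limma fit, the FGF21 rises were 0.96 for Etv5 (adjusted p = 0.000532), 0.60 for Spred1 (adjusted p = 0.00364), 1.48 for Spry4 and 1.07 for Spred2. In that fit Spred1 also passed with the antibody (0.47, adjusted p = 0.00989), and Etv5 and Spry4 passed between the agents (adjusted p = 0.0203 and 0.0418). With both control 34 and FGF21 36 left out, the FGF21 rises were 1.19 for Etv5 and 0.85 for Spred1. Control 34 and FGF21 36 were also the highest of their groups in fibroblast markers, so macrophage and fibroblast content cannot be told apart in these mice. Beyond these values, the part of either cell type in the Etv5 and Spred1 levels was not tested.

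**Figure D4:**
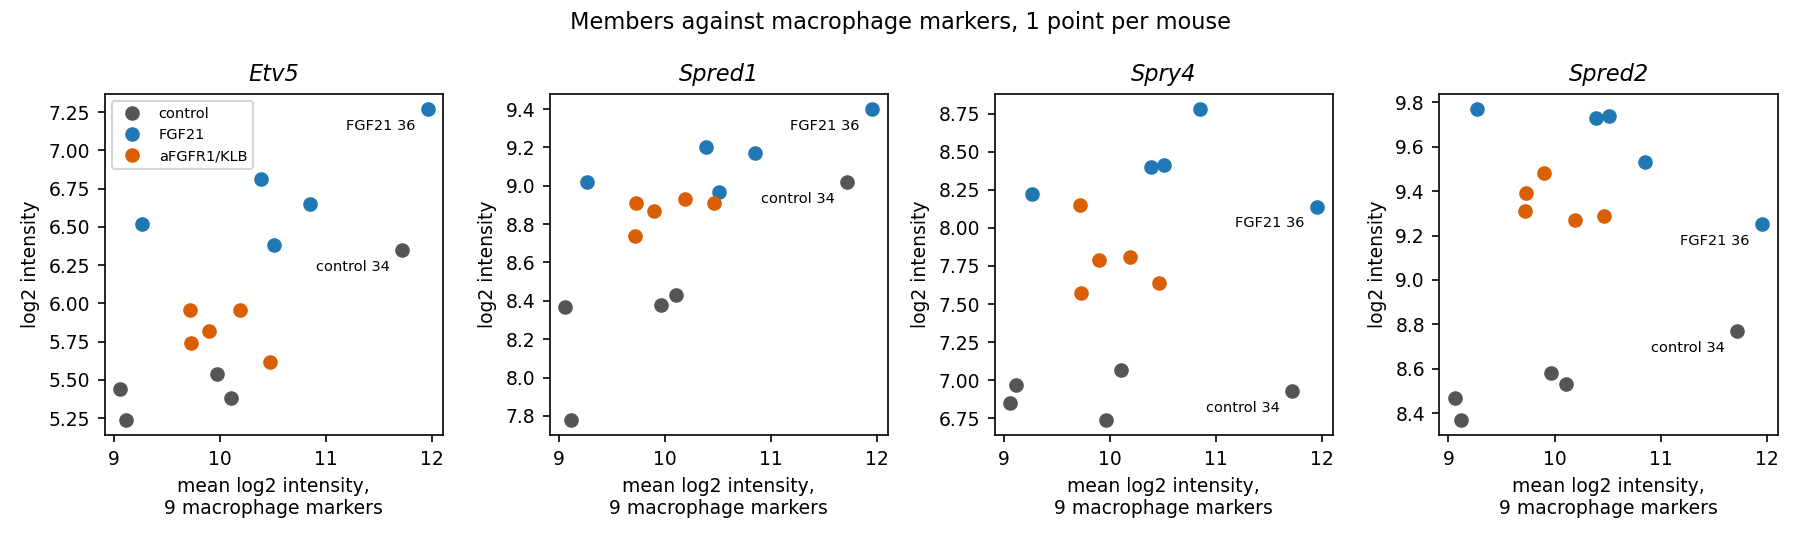
Log2 intensity of members (vertical axis) against the mean log2 level of 9 macrophage markers (horizontal axis), 1 point per mouse, coloured by group. Control 34 and FGF21 36 lie at the right; the within-group r was 0.79 for Spred1 and 0.78 for Etv5 with these mice and 0.47 and 0.12 without them, and −0.03 for Spry4 and −0.13 for Spred2 with them and 0.29 and −0.18 without them.

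The genes most like each called member were found by Pearson's r of log2 intensity over the 15 samples, among all genes tested. For Spry4 these were Sdc4 (0.963), Dlc1 (0.96), Dusp4 (0.959), Dusp6 (0.933) and Irs2 (0.932). For Spred2 they were Dusp6 (0.974), Sdc4 (0.959), Dusp4 (0.952), Cdk17 (0.952) and Elavl1 (0.951), so that Sdc4, Dusp4 and Dusp6 stand in both sets. Etv5 was nearest to Gcnt2 (0.95), Cic (0.943), Nav3 (0.929), Adamts1 (0.923) and Lmna (0.914). Spred1 was nearest to Rbm12 (0.962), Csnk1a1 (0.955), Tsr1 (0.952), Frrs1 (0.951) and Fam13b (0.949), and Spry1 to Nsmaf (0.958), Ppp4r1 (0.846), Slc10a6 (0.827), Magt1 (0.827) and Cacul1 (0.82). The sets of Etv5, Spred1 and Spry1 share no gene with each other or with those of Spry4 and Spred2. Such r takes in the differences between groups. For Spry4 with Spred2 it was 0.90 over the 15 samples but 0.03 after group means were removed.

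Other genes of the pathway were counted in lists by role. Of all genes 6.32% were called with FGF21 and 5.18% with the antibody, so a count of 0 or 1 in lists this short lies near those shares. Without control 34 the shares were 15.9% and 8.65%. Among the MAP kinase phosphatases, which remove the activating phosphates of ERK, p38 and JNK, 2 of 9 tested rose and 1 fell with each agent. Dusp4 rose by 2.21 ± 0.13 with FGF21 (adjusted p = 3.8e-07) and 1.25 ± 0.13 with the antibody (adjusted p = 0.000315), and the antibody group was lower than the FGF21 group by −0.96 ± 0.13 (adjusted p = 0.0068). Dusp6 rose by 1.48 ± 0.14 and 1.10 ± 0.14 (adjusted p = 4.6e-05 and 0.001). Dusp16 fell, with −0.50 ± 0.10 and −0.39 ± 0.10 (adjusted p = 0.0103 and 0.0403). Dusp10 was at −0.34 and −0.15 and did not pass. The list medians were −0.03 and 0.02, beside −0.02 over all genes. Dusp1 was at 0.36 and 0.31, Dusp5 at 0.35 and 0.02 and Dusp2 at −0.03 and 0.07. Dusp7 was at −0.16 and −0.19 and Dusp9 at −0.14 and −0.04. None of these passed.

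Upstream of the members, the list of the FGFR1 complex and its adaptors held 1 fall with FGF21 and 0 calls with the antibody among 10 tested genes. The fall was that of Gab1, a docking protein (−0.29 ± 0.08, adjusted p = 0.0482). Its count changed with the samples. It was 0 without any of controls 31, 32 and 33, FGF21 mice 37, 38 and 40 and antibody mice 41, 42, 43 and 44, and 2 without control 34, when Klb also passed. Klb was at −0.40 ± 0.12 with FGF21 (adjusted p = 0.0529) and −0.22 ± 0.12 with the antibody. Sos2, a RAS exchange factor, was at 0.37 with the antibody (adjusted p = 0.0534), passing without control 31 or FGF21 36, and the ubiquitin ligase Cbl at −0.33 (adjusted p = 0.26). Of the kinases from RAS to ERK 7 were tested and 0 passed with either agent, with medians of −0.06 and −0.12. Araf, Braf, Ksr1 and Map2k1 were at −0.06, 0.07, −0.23 and −0.06 with FGF21 and at −0.19, 0.16, −0.21 and −0.12 with the antibody. Among 7 RAS GTPase activating proteins, the class to which neurofibromin belongs, 1 fell with FGF21, Dab2ip (−0.43 ± 0.09, adjusted p = 0.0126), and 0 passed with the antibody. Dab2ip passed with the antibody too without control 34. Nf1, which encodes neurofibromin, was at 0.06 and 0.17, Rasa4 at 0.29 and −0.04 and Rasal2 at 0.14 and 0.11, and none of these 3 passed.

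Beside the members downstream, 1 of 13 other ERK target genes rose with FGF21 and 0 with the antibody, with list medians of 0.24 and −0.01. Of all genes 6.32% were called with FGF21 and 5.18% with the antibody. The riser was Fosl1, a partner in AP-1 (0.99 ± 0.20, adjusted p = 0.00947), which was at 0.05 with the antibody. Errfi1, an inhibitor of EGF receptor family kinases, was at 0.66 and 0.56 and did not pass (adjusted p = 0.064 and 0.122). Ier2 was at 0.24 and −0.13 and Epha4 at 0.14 and 0.27. The FGF21 count was 5 without control 34 (Egr1, Errfi1, Fos, Fosl1 and Ier2) and 2 without FGF21 36, and that with the antibody was 1 without control 34 (Errfi1). Of the 18 other ETS factors and Capicua with its partners, 1 rose with FGF21 and 0 with the antibody. It was Cic (0.50 ± 0.10, adjusted p = 0.00792), which was at 0.14 with the antibody. Ets2 was at 0.42 (adjusted p = 0.0577) and 0.17, Elk4 at −0.02 and −0.21 and Atxn1l at 0.05 and 0.23. That count was 4 without control 34 (Cic, Elk3, Ets1 and Ets2) and 2 without aFGFR1/KLB 43. Without control 34, calls over all genes also rose, to 15.9% with FGF21 and 8.65% with the antibody.

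**Figure D5:**
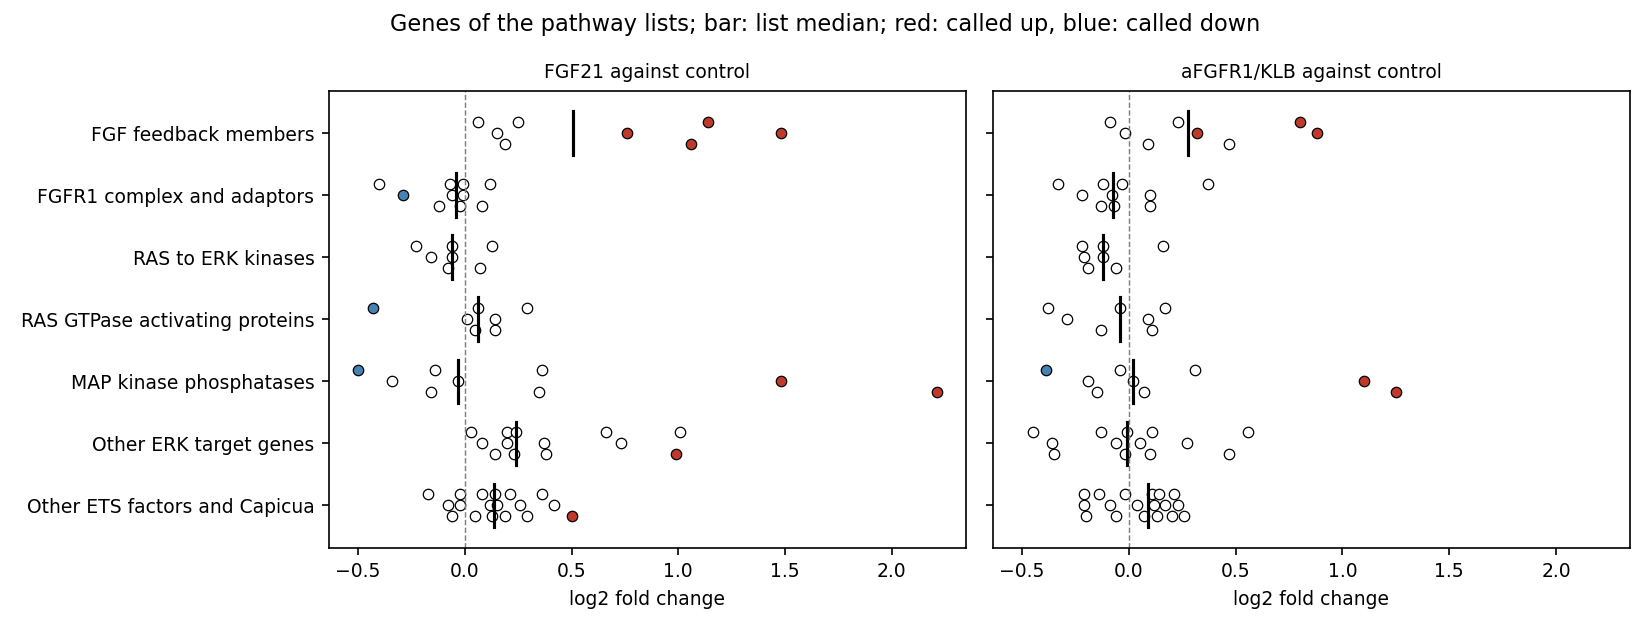
Log2 fold changes against control (1 point per tested gene) for the members and the 6 pathway lists, for FGF21 and the antibody. Filled points passed the test and bars are list medians. The members' medians are 0.50 and 0.28, and the highest points of the phosphatase list are Dusp4 and Dusp6.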

How the data were processed

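Total RNA of 15 mice was read on 1 array each. The deposited values are intensities on a linear scale that the authors made with RMA (which corrects background, quantile normalises and summarises probes), per the submitters' processing notes; version and chip definition are not given in the sources used here. Here log2 was taken and nothing else was normalised. Of 45101 probe sets, 34958 carry 1 gene symbol, 932 several and 9211 are not listed. Of the 34958, 34754 matched RefSeq (GRCm38.p6) by Entrez ID, and 0 symbols differed. A gene was tested if its probe set mean lay above the 40th percentile (13174 genes, leaving out 5020).

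The 15 samples entered 1 limma model of the 3 groups (limma 3.58.1, R 4.3.3; 12 residual degrees of freedom), and the scripts were tested on simulated data. The series describes biological replicates. Named were all members, up to 4 genes per pathway list with the smallest p against control and the 5 genes most correlated with each called member. Members and lists were chosen with earlier results of these data known. The alternatives changed the probe set rule, filter, offset, scaling, samples fitted, limma settings, weights and covariate, and left out samples. No scan date or batch is labelled.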

Additional observations from a re-analysis of the deposited data

Results flagged for a closer look

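Etv5 in control 34 stood apart from the other controls at 6.35 on the log2 scale. The nearest control was at 5.54, and the gap took up 0.730 of the group's range, above Dixon's 95% critical value for 5 samples. It was the only such value among the 27 groups of 5 examined (9 genes in 3 groups), and chance sets apart about 1 in 20 groups. The rise of Etv5 with FGF21 was called with and without this sample.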

How the results depend on the processing

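Each comparison was recomputed under 27 alternatives. Etv5 and Etv4 were tested in 26 of them. Etv5 lay below the filter with all probe sets averaged, and Etv4 with the probe set of highest variance. With FGF21 against control the count of called members stayed between 3 and 5 around 4 (4 to 5 without 1 sample), and Spry4 and Spred2 were called in all 27. With the antibody against control it was 5 instead of 3 with array weights and 5 with both control 34 and FGF21 36 left out, and 2 to 4 without 1 sample. It was 2 with all probe sets averaged, with no filter, with the 20th percentile filter and with the 10 samples alone. Spred2 was called in all 27, Spry4 in 26 and Spry1 in 11. Between the agents it was 1 instead of 0 with the probe set of highest variance, 1 with an offset of 16, 1 with the 10 samples alone, 2 with trend and robust settings, 2 with the macrophage covariate, 3 with both mice left out, 4 with array weights and 0 to 2 without 1 sample. The cause was not tested. Signs turned only for differences near 0. With all probe sets averaged, Etv4 was at −0.04 with FGF21, and Etv4 and Il17rd at 0.02 each between the agents. Centring on 48 ribosomal protein genes gave Spry2 0.01 and Etv4 0.07 with the antibody and Etv4 0.01 between the agents. Array weights gave Etv4 0.01 with the antibody and Il17rd 0.03 between the agents. With the antibody Etv4 was 0.00 with both mice left out, 0.00 without control 34, 0.02 without aFGFR1/KLB 45 and between −0.05 and 0.02 over all fits without 1 sample.

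Over all genes, those called ranged from 186 to 2855 around 833 with FGF21, from 163 to 2307 around 682 with the antibody and from 8 to 832 around 49 between the agents, lowest with the ribosomal centring and highest with array weights. The ribosomal centring raised the share of called genes that rose from 41.8% to 66.7% with FGF21 and from 51.9% to 77.9% with the antibody, and moved that between the agents from 34.7% to 25%. It moved the median of all genes to −0.01, 0.08 and 0.10 from −0.02, −0.02 and 0.01. Spred3 and the dim probe sets are limited by signal near the filter. No paired analysis was possible because replicate numbers do not repeat between groups.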
